A study of Rattus norvegicus with 4 samples.

Results

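Genes encoding enzymes that write and erase chromatin marks and DNA methylation were examined in rat alveolar macrophages exposed to carbon black. The set was chosen by name, as the rat RefSeq symbols that begin with Hdac, Sirt, Kdm, Kmt, Dnmt, Tet, Ezh or Setd and continue with a digit. No measured value was part of that rule, although it was set with earlier results of these data known. Of 97 such symbols, 67 were protein coding and 30 were pseudogenes, and 41 genes, all of them protein coding, were matched to 52 probes of the array through their RefSeq accessions. They stood among 16581 named genes with a probe. The other 26 protein-coding genes, among them all 3 Tet genes, Dnmt3b, Sirt1, Sirt2, Hdac6, Hdac7 and Kmt2a to Kmt2d, were not matched to a probe here and have no value.

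The acetylation and methylation of lysines in histone tails and the methylation of cytosine in CG dinucleotides are laid down and removed by opposing enzymes. Zinc-dependent deacetylases (Hdac) and NAD-dependent sirtuins (Sirt) remove acetyl groups, while the lysine methyltransferases (Kmt, Setd and Ezh) and the lysine demethylases (Kdm) add and remove methyl groups. Dnmt enzymes methylate DNA and Tet enzymes oxidise the methyl group. In macrophages several of these enzymes are known regulators of inflammatory genes, among them the deacetylase Hdac3 and the demethylase Kdm6b.

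All samples were of 1 group, NR8383 cells, a continuous line established by lung lavage of a normal rat, after 20 passages and 4 h with Printex 90 carbon black at 0.9 cm²/cm². The 4 biological replicates, described as such by the design text, were each hybridised to a 1-colour Agilent array. Each value below is therefore a level in exposed cells of 1 cell line. The series asked how carbon black changes expression against cells incubated without it. Those incubations were not analysed here, so no effect of the particles was measured.

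Between 37.5% and 40.9% of 45598 probes were marked well above background by the scanner software on an array, and none was saturated. To put arrays on 1 scale, the 75th percentile of the log2 processed intensities of an array was subtracted from each of them, so 0 is that percentile, and a level belongs to its own probe and cannot be ranked against another gene's. A gene counted as measured on an array if at least 50% of the spots of a probe carried the mark. Below it a value is only a bound: the dimmest marked spot lay at -2.29, -3.05, -2.56 and -2.40 on replicates 1 to 4. The macrophage markers Cd68, Ptprc and Csf1r passed on every array, as did 10 of the 12 macrophage markers examined, while Marco and Adgre1 passed on none. Markers of epithelium, lymphocytes, granulocytes, fibroblasts and endothelium numbered 26 with a probe, and 23 of them passed on no array. The exceptions were Cd3d, on all arrays, and S100a8 and Cdh5, on some.

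Most of the chromatin enzyme genes were expressed. Signal well above background was found on every array for 30 of the 41 (73.2%), on part of the arrays for Sirt4 and Hdac8, and on no array for 9 (22%). Among all named genes with a probe 47.9% were so on all arrays and 44% on none. All 4 Kmt genes and both Ezh genes with a probe were measured on every array, as were 10 of 13 Kdm, 4 of 5 Sirt, 3 of 4 Setd, 6 of 10 Hdac and 1 of 3 Dnmt genes. Without any 1 replicate the number on all remaining arrays was 30. This was fixed, since Sirt4 passed on 2 arrays and Hdac8 on 1, and no gene on 3. With the software's softer mark of significance the number on all 4 arrays was 33, which added Hdac8, Setd6 and Sirt4. The share of all named genes under the softer mark is not given here. A single probe decided the call for 32 of the 41 genes, so a call below the mark is a statement about that probe.

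**Figure D1:**
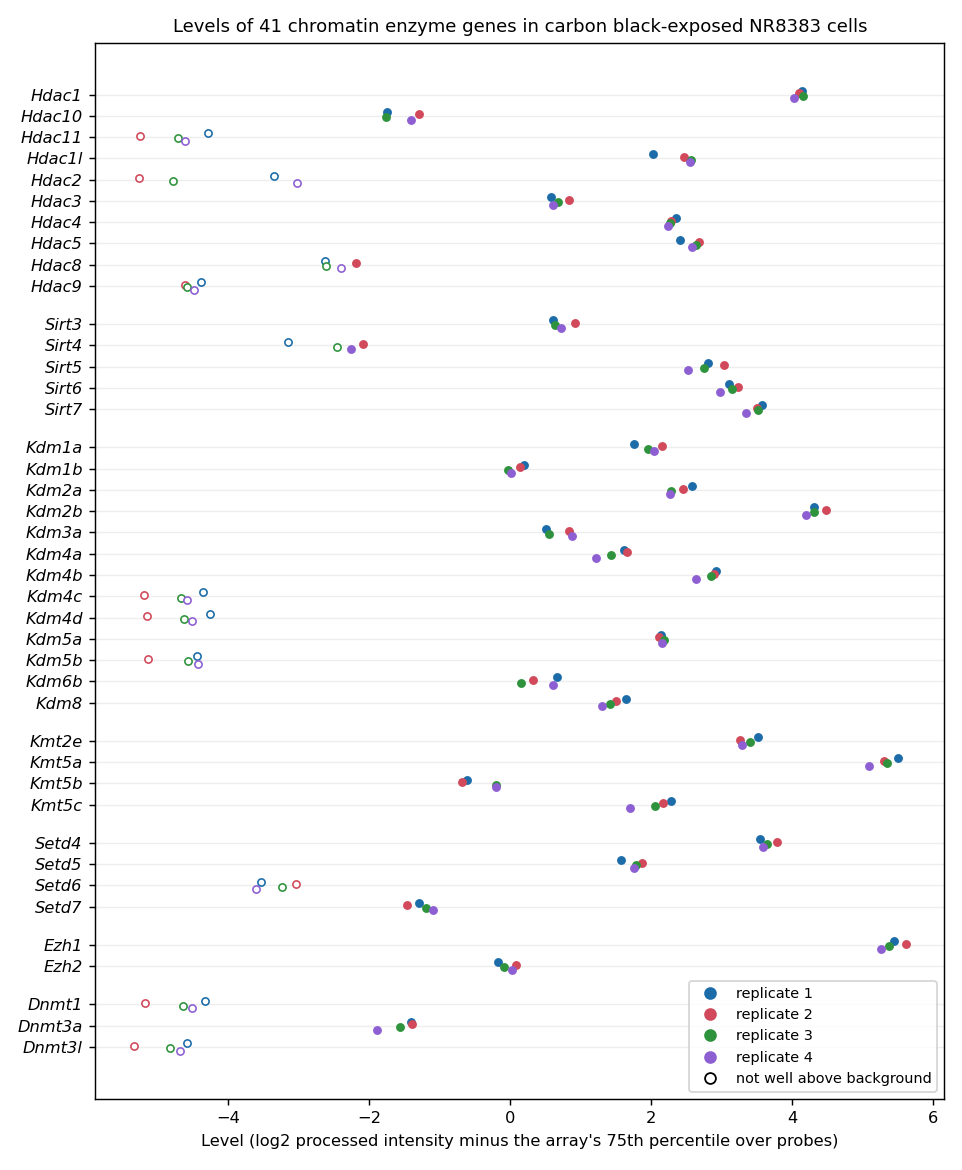
Level of each of the 41 genes (rows, grouped by family) on each array. Colours are replicates 1 to 4, filled points were well above background and open points were not, and the 9 genes with 4 open points have only a bound. The x axis is log2 processed intensity relative to the array's 75th percentile.

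The 3 Dnmt genes with a probe, each read by 1 probe, divided in their calls. Dnmt3a, a de novo methyltransferase, was measured on every array, at -1.41, -1.39, -1.56 and -1.89 on replicates 1 to 4, with a mean of -1.56 ± 0.23 (SD, n = 4). Its level was lowest on replicate 4. Dnmt1, which copies methylation onto the new strand after replication, was below the mark by its single probe on every array, at -4.33, -5.18, -4.64 and -4.52. Every one of these values lay below the dimmest marked spot of its array. Dnmt3l, a catalytically inactive partner of the de novo enzymes, was likewise not well above background, at -4.59, -5.34, -4.83 and -4.69. The replication clamp gene Pcna and the proliferation gene Mki67, which were looked up after the value of Dnmt1 had been seen, were well above background on all arrays at 4.46 ± 0.11 and 4.51 ± 0.16 (SD, n = 4). Of 9 partners of DNA methylation with a probe, which include the base excision gene Tdg, 8 were measured on all arrays. Zfp57 was measured on none, and Uhrf1 and Mbd4 were not matched.

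Both catalytic subunits of Polycomb repressive complex 2, which methylates lysine 27 of histone H3, were expressed. Ezh1 had levels of 5.44, 5.62, 5.38 and 5.27 on replicates 1 to 4, and Ezh2, the form tied to dividing cells, -0.17, 0.08, -0.09 and 0.03. Replicate 2 was the highest array for both, and the lowest was replicate 4 for Ezh1 and replicate 1 for Ezh2. Their SDs of 0.15 and 0.11 (n = 4) stood beside a median of 0.147 over the named genes tested. Of 6 partners of the complex with a probe, Eed, Rbbp4, Rbbp7, Mtf2 and Phf19 were measured on all arrays and Phf1 on 3, and Suz12, Jarid2 and Aebp2 were not matched.

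Lysine 20 of histone H4 is methylated by Kmt5a, which adds the first methyl group, and by Kmt5b and Kmt5c, which add further ones. All 3 genes were measured on all arrays. By its brightest probe Kmt5a had levels of 5.50, 5.31, 5.35 and 5.10 on replicates 1 to 4. By this probe it was highest on replicate 1 and lowest on replicate 4. Its other probes, also measured on all arrays, had 0.60, 0.49, 0.79 and 0.64, and 3.37, 2.83, 2.91 and 2.96. Both were lowest on replicate 2. Kmt5c had 2.29, 2.17, 2.05 and 1.70, with the highest and lowest arrays of the brightest Kmt5a probe. For Kmt5b the levels by the brighter probe were -0.61, -0.68, -0.21 and -0.21, with replicates 3 and 4 above replicates 1 and 2. The dimmer probe, well above background on 2 arrays, had -2.76, -2.38, -1.91 and -2.66, with replicate 4 below replicate 2. Kmt2e, a divergent relative of the Mll methyltransferases, had 3.52, 3.27, 3.40 and 3.30. Of 7 partners of the Mll and Set1 (COMPASS) complexes with a probe, among them Wdr5 and Ash2l, 7 were measured on all arrays, although Kmt2a to Kmt2d, Setd1a and Setd1b, the enzymes of those complexes, were not matched.

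Among the other SET-domain genes, Setd4 had levels of 3.55, 3.79, 3.65 and 3.59 on replicates 1 to 4 and Setd5 1.58, 1.87, 1.79 and 1.76. Both were lowest on replicate 1 and highest on replicate 2. Setd7, which methylates lysine 4 of histone H3 and several non-histone proteins, had -1.30, -1.47, -1.20 and -1.10, with replicate 4 the highest. Setd6, which methylates the NF-kappaB subunit RelA, was not well above background on any array, with values between -3.60 and -3.04, although the softer mark was set on all 4.

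Lysine demethylases were measured for 10 of 13 genes on all arrays. The H3 lysine 4 demethylase gene Kdm5a had by its brightest probe the smallest SD of the enzyme genes tested, 0.027, with levels of 2.14, 2.11, 2.18 and 2.15 on replicates 1 to 4. Another of its probes, also measured on all arrays, had an SD of 0.48. Kdm6b, which removes methyl groups from H3 lysine 27 and is induced by inflammatory stimuli in macrophages, had 0.67, 0.33, 0.16 and 0.61 and a mean of 0.44 ± 0.24 (SD, n = 4). Its level was lower on replicates 2 and 3 than on replicates 1 and 4. The flavin-dependent demethylase gene Kdm1b had 0.20, 0.14, -0.02 and 0.02, and Kdm1a a mean of 1.98 ± 0.17.

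Kdm2b, a CG-binding demethylase of a variant Polycomb complex, had levels of 4.31, 4.49, 4.32 and 4.20 on replicates 1 to 4. Kdm4a, a demethylase of H3 lysine 9 and 36, had 1.61, 1.66, 1.43 and 1.21, lowest on replicate 4. Kdm3a, a hypoxia-responsive H3 lysine 9 demethylase, had 0.50, 0.84, 0.55 and 0.87, with replicates 2 and 4 above replicates 1 and 3. The means of Kdm2a, Kdm4b and Kdm8 were 2.40 ± 0.15, 2.82 ± 0.13 and 1.47 ± 0.15 (SD, n = 4). Kdm4c, Kdm4d and Kdm5b passed on no array, with values between -5.20 and -4.26 that are bounds. Kdm3b, Kdm5c, Kdm5d, Kdm6a and Kdm7a were not matched to a probe.

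The zinc-dependent deacetylases were unevenly measured. Of class I, Hdac1 had levels of 4.14, 4.10, 4.15 and 4.02 on replicates 1 to 4 and Hdac3 0.58, 0.83, 0.67 and 0.61. The SD of Hdac1 was 0.059, and that of Hdac3 0.11. Hdac2, the close paralogue of Hdac1, was not well above background on any array, with values between -5.27 and -3.03 that are bounds. Hdac8 passed on replicate 2 alone, with -2.62, -2.19, -2.62 and -2.41. The RefSeq table also holds 18 pseudogenes named for Hdac1 and the gene Hdac1l, an Hdac1-like copy with its own accession. How much of the signal of the Hdac1 and Hdac1l probes came from each of these copies was not tested.

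Among class IIa deacetylases, which shuttle between cytoplasm and nucleus, Hdac4 had levels of 2.35, 2.28, 2.26 and 2.24 on replicates 1 to 4 and Hdac5 2.41, 2.68, 2.64 and 2.58. These 4 values of Hdac4, from its brighter probe, lay within a 1.08-fold range, and those of its dimmer probe within a 1.71-fold range. Hdac9 was not well above background by either of its probes, and Hdac7 was not matched. Hdac10, of class IIb and known as a polyamine deacetylase, had -1.74, -1.30, -1.77 and -1.41, with replicates 2 and 4 above replicates 1 and 3. Hdac11, the class IV enzyme, was not well above background on any array, with values between -5.26 and -4.29 over 10 spots per array. Of 8 partners of deacetylase complexes with a probe, including the corepressor gene Ncor1, 8 were measured on all arrays.

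Sirtuins were measured for all 5 genes with a probe on at least 2 arrays. Of the nuclear members, Sirt6 had levels of 3.11, 3.23, 3.15 and 2.98 on replicates 1 to 4 and the nucleolar Sirt7 3.57, 3.51, 3.51 and 3.35. Both were lowest on replicate 4 by these probes, while the dimmer Sirt7 probe was highest there, at 3.19. Of the mitochondrial members, the deacetylase gene Sirt3 had 0.60, 0.93, 0.64 and 0.72 and the desuccinylase gene Sirt5 2.80, 3.04, 2.76 and 2.52, and both were highest on replicate 2. Sirt4, also mitochondrial, had -3.16, -2.09, -2.46 and -2.27 and was well above background on replicates 2 and 4 alone, so the other values are bounds.

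Partner and counterpart genes outside these families were read in the same way. Of 92 genes over 8 lists, 68 were matched to a probe. Of these 68, 61 (89.7%) passed on every array, beside 47.9% of all named genes. The lists were chosen with earlier results of these data known, and the difference between the shares was not tested. Phf1 and Kat14 passed on part of the arrays, and Zfp57, Suv39h2, Ash1l, Smyd1 and Uty on no array. Acetyltransferases, which oppose the deacetylases, were measured on all arrays for 8 of 9 genes, among them Crebbp and Kat5. All 6 acetyl-lysine readers with a probe, including Brd2, were measured. Of other lysine methyltransferases 13 of 16 were, including the H3 lysine 9 enzyme genes Ehmt2 and Suv39h1, and of other demethylases 6 of 7.

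The spread between replicates was tested for the 31 enzyme genes that passed on at least 2 of the 4 arrays, each against the spread of all genes of like mean level (limma, one-sided F test on the variance, Benjamini-Hochberg adjustment over 14918 genes). Their median SD was 0.145 log2 units, against 0.147 over the named genes tested and 0.161 over all genes tested, which include unnamed transcripts. By the brightest probe of each gene, the lowest and highest arrays differed by a median of 1.25-fold. The most was 1.51-fold, for Kmt5c, among the 30 genes measured on all arrays. Dimmer probes of Hdac1l, Kdm5a and Hdac4, also measured on all arrays, had ranges of 6.81-fold, 2.22-fold and 1.71-fold. In the limma test 0 of 31 passed an adjusted p of 0.05 (smallest adjusted p = 0.987) and 0 had an unadjusted p under 0.05, against 0.476% of all genes tested after adjustment and 5.06% before (0.118% and 2.81% of the named genes). An unadjusted p under 0.05 appeared for Hdac1l with no filter on dim probes (0.040) and for Sirt5 without replicate 1 (0.0497). With the settings of the main limma test the smallest unadjusted p was 0.099, for Hdac1l. Its levels were 2.02, 2.46, 2.56 and 2.55 on replicates 1 to 4. A test with 4 arrays has low power, so these values do not show that the genes were equally expressed in the 4 samples.

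**Figure D2:**
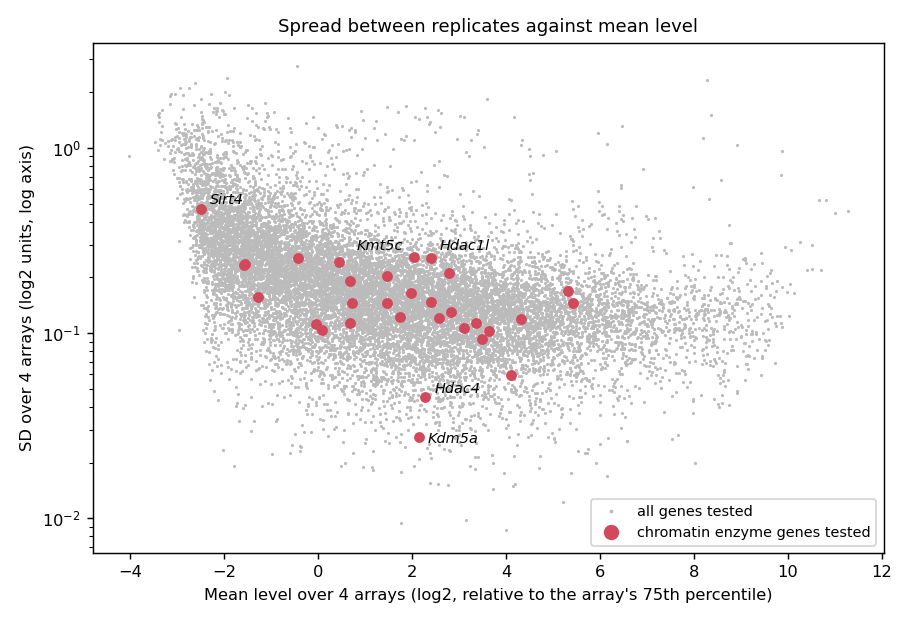
SD over the 4 arrays (log axis) against mean level for the 14918 genes tested (grey) and the 31 enzyme genes among them (red). Kdm5a (SD 0.027) and Hdac4 (SD 0.045) lie at the lower edge of the cloud, Sirt4 (SD 0.47), well above background on 2 arrays, is the red point farthest to the left, and Hdac1l and Kmt5c both have an SD of 0.26.

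The arrays were then compared by the deviation of each enzyme gene from its own mean, without a test. The median deviation of the 31 genes was -0.0051, 0.117, 0.00021 and -0.065 log2 units on replicates 1 to 4, and that of all genes tested was -0.045, 0.069, 0.015 and -0.025. Of the 31 genes, 15 (48.4%) were highest on replicate 2 and 14 (45.2%) were lowest on replicate 4, against 38.5% and 32.6% of all genes tested. The range of the median over arrays was 0.182, against 0.113 for all genes, and it changed with the scaling. With the 75th percentile taken over detected probes it was 0.063 against 0.030 for all genes, with quantile normalization 0.092 against 0.028, and with another background correction 0.212 against 0.126. Under these 3 settings the median of the enzyme genes was above 0 on replicates 1 and 2 and below 0 on replicates 3 and 4. Without replicate 2 the range was 0.079 against 0.060 for all genes. Without replicate 4 it was 0.102, below the 0.112 of all genes. With no filter on dim probes it was 0.061 over 41 genes against 0.350 for all genes, so that the order of the 2 ranges turned under both settings.

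**Figure D3:**
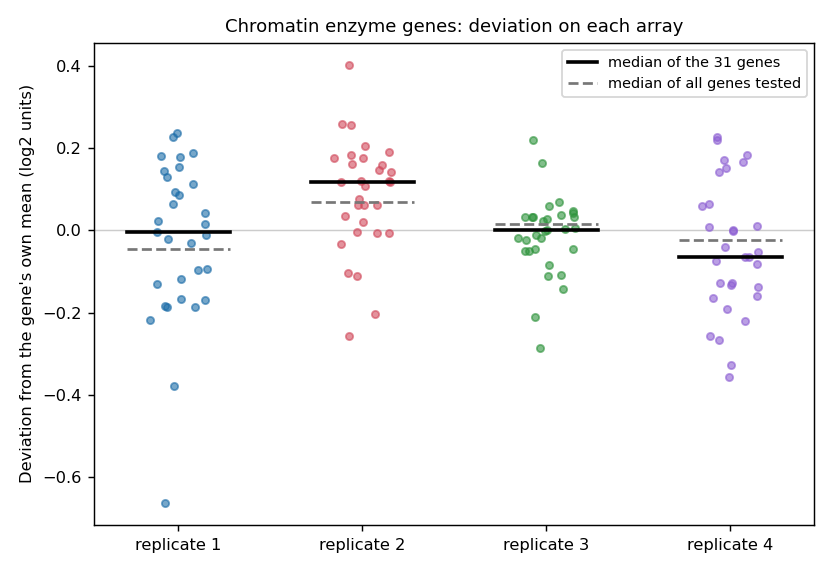
Deviation of each of the 31 enzyme genes from its own mean on each array (points), with the median of these genes (solid line) and of all genes tested (dashed line). The solid line is highest on replicate 2 (0.117) and lowest on replicate 4 (-0.065), and the single point below -0.6 on replicate 1 is Sirt4, which was not well above background there.

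Several genes had more than 1 probe, 7 with 2 probes and 2 with 3. In 8 of these 9 genes at least 2 probes were well above background on at least 2 arrays, and in 5 of the 8 replicate 1 was the highest array by 1 probe and the lowest by another. These were Hdac1l, Hdac4, Kdm4b, Kdm5a and Sirt7, a count made after the values had been seen. The same count was not made over the other genes with several probes, so it cannot be called particular to these genes. Replicate 1 was the lowest array for 39.3% and the highest for 22% of all genes tested. The probes of Kmt2e had the same lowest array, replicate 2, and those of Kmt5b the same highest array, replicate 3.

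The widest disagreement was in Hdac1l. Its dimmer probe read 1.17, -0.91, -1.60 and -1.53 on replicates 1 to 4, a 6.81-fold range in which replicate 1 stood above the others, while its brighter probe, given above, was lowest on replicate 1. Both probes were matched through the same accession. With each probe fitted on its own the dimmer probe had an unadjusted p of 0.000257 and an adjusted p of 0.051 (limma, 17533 probes, of which 0.485% passed), and so did not pass.

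For Kdm5a, 2 probes were matched to 1 transcript accession and 1 probe to another. The brightest was almost flat, as given above, the probe of the other transcript was highest on replicate 4, at -1.34, -0.60, -0.59 and -0.19 on replicates 1 to 4, and the remaining one had -0.65, -1.11, -0.90 and -1.15. The dimmer Hdac4 probe had -1.18, -0.50, -0.44 and -0.40, lowest on replicate 1, and that of Sirt7 2.66, 3.03, 2.95 and 3.19. None of these dimmer probes passed the test (adjusted p = 0.986 for each, limma). A value for one of these genes is therefore the value of the probe that was read.

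**Figure D4:**
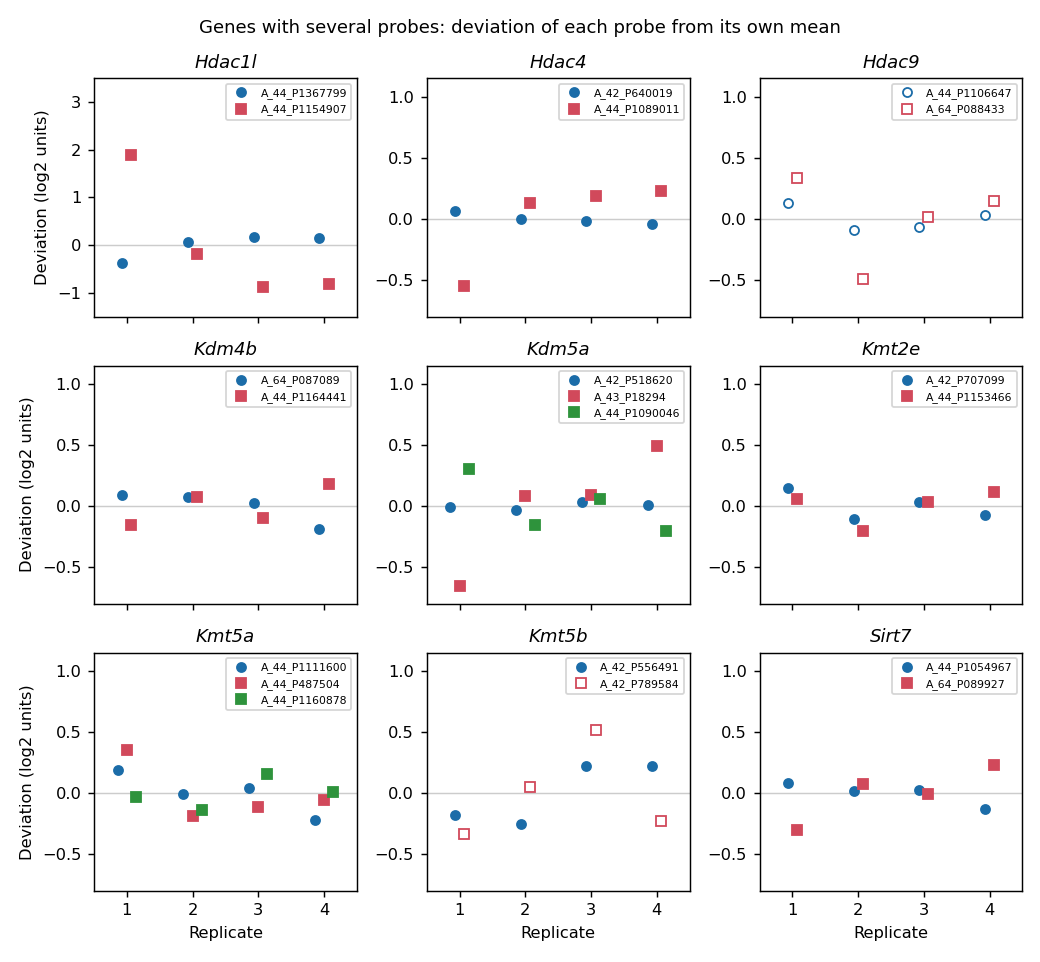
Deviation of each probe from its own mean on replicates 1 to 4 for the 9 genes with several probes. Circles are the brightest probe, used for the gene's level, squares are the others, open symbols mark probes that missed the mark on 1 array or more, and the Hdac1l panel has a wider y axis. The dimmer Hdac1l probe lies far above its mean on replicate 1 (level 1.17, mean -0.72), where the brighter one is at its lowest.

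Probes printed in repeat spots allowed the error within an array to be set beside that between arrays. The SD within an array is that of single spots and the SD between arrays is that of their mean, so these are unlike measures. The 10 spots of the Kmt5a probe had a median SD of 0.064 within an array, against 0.17 between arrays. For Hdac1, Kdm2b and Kmt5c, with 2 spots each, the within-array SD was 0.029, 0.033 and 0.038 and the SD between arrays 0.059, 0.12 and 0.26.

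Promoter sequence was read from RefSeq (build GRCr8) for 34 of the 41 genes, as the 250 bases before the first listed transcription start. CG dinucleotides, the substrate of the Dnmt enzymes, were counted in them, while methylation itself was not measured. The following 4 are shown because each pair, from 1 family, holds a gene measured on all arrays and a gene that was not, and because their start is the outer end of the gene. Capitals mark CG, and all 4 lie on the minus strand and are printed 5′ to 3′ in the direction of transcription.
Hdac1, chr5:147165388-147165637, measured on 4 arrays, 23 CG: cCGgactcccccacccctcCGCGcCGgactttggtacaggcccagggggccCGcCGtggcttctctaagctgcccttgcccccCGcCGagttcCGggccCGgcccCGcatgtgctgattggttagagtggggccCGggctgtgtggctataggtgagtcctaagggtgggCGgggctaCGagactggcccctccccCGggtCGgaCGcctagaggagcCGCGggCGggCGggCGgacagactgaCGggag
Hdac8, chrX:71632866-71633115, measured on 1 array, 2 CG: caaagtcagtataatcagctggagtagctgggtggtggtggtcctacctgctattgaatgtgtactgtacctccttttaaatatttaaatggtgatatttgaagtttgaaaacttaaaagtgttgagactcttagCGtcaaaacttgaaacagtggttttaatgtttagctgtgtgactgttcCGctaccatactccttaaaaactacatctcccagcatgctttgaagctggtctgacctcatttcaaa
Setd4, chr11:46344025-46344274, measured on 4 arrays, 15 CG: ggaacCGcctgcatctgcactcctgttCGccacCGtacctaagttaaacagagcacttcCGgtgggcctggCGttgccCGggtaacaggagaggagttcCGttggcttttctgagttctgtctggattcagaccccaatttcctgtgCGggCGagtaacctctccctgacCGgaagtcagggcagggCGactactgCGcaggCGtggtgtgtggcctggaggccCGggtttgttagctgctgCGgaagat
Setd6, chr19:9356516-9356765, measured on no array, 26 CG: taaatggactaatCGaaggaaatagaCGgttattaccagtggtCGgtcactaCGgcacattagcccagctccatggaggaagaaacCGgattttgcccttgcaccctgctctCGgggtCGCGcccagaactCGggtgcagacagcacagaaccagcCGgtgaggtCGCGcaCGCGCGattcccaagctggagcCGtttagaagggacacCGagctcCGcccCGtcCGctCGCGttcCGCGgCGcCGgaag

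The Hdac1 window was denser in CG than that of Hdac8, whereas the Setd6 window, of a gene below the mark on every array, was denser than that of Setd4. All 24 enzyme genes measured on all arrays with a promoter had 11 to 31 CG, with a median of 16.5. The median was 17 over 6675 named genes measured on all arrays, 5 over 5811 measured on none and 6 over all 27457 genes in the table. The 8 enzyme genes below the mark on every array had a median of 15.5, from 2 in Hdac9 to 27 in Kdm4c, and the windows of Dnmt1 and Dnmt3l held 9 and 8. At least 10 CG were present in 24 of the 24 and in 5 of the 8, against 77% and 32.5% of named genes measured on all arrays and on none.

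Other short motifs were searched on both strands of the same windows. GGGCGG, the core of the GC box, was in 24 of 34 enzyme genes and in 32.4% of all windows, and it contains a CG. CCAAT was in 15 of 34 and in 34.3% of all windows, and TATAAA in 0 of 34 and in 13.1%. Among genes measured on all arrays, GGGCGG was in 19 of 24 enzyme genes against 59% of named genes. In the same sets CCAAT was in 13 of 24 against 37.3%, and TATAAA in 0 of 24 against 6.56%. These are matches of letters and not sites. For 24 of the 34 genes the listed start lay inside the annotated span of the gene, by 91286 bases in Dnmt3a and 299083 in Hdac9, so that the window may not be the promoter in use.

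**Figure D5:**
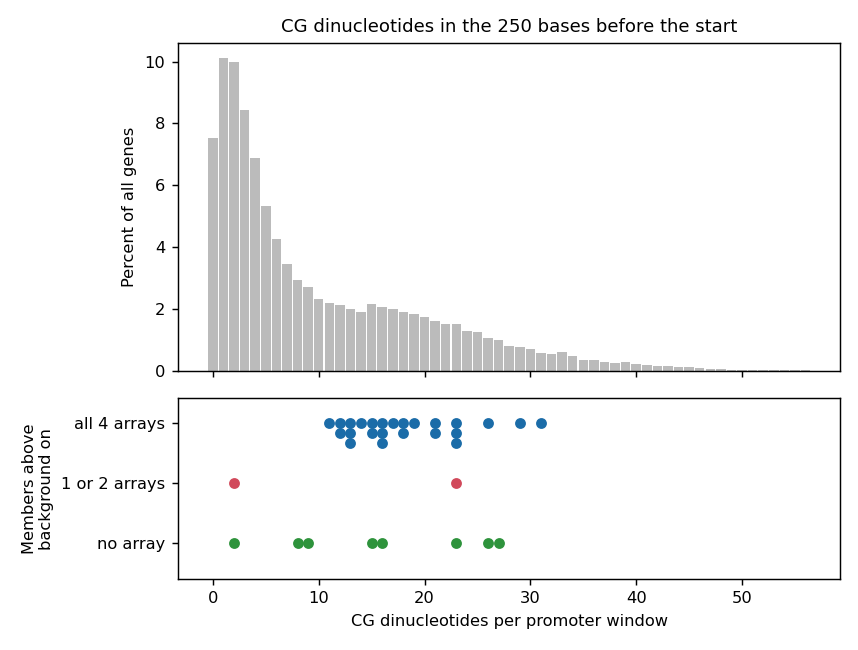
Top, percent of 27457 RefSeq genes (y axis) by the number of CG dinucleotides in the 250 bases before the start (x axis). Bottom, the 34 enzyme genes with a promoter, 1 point each, by the number of arrays on which they were well above background. Genes measured on all 4 arrays lie between 11 and 31, and those measured on none between 2 and 27.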

How the data were processed

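The authors' deposited files hold linear intensity per spot from Agilent Feature Extraction 11.0.1.1, per the submitters' processing notes and the file headers. The processed intensity is background-subtracted and not normalized between arrays; a spatial detrending fit is recorded per the file headers. From it the log2 values of repeat spots were averaged per probe, without control and non-uniform spots, and the array's 75th percentile was subtracted. Where every spot of a probe on an array was non-uniform, for 12 values, these spots were used all the same. Accessions without versions were matched to RefSeq (assembly GRCr8, names only). The probe with the highest mean gave a gene's level. Variances were tested with limma 3.58.1 in R 4.3.3 (intercept fit, squeezeVar prior with a trend, threshold 0.05); the test was checked on simulated data. All 4 arrays were of 1 slide and scan, per the file headers, so no batch could be compared.

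Every member with a probe could be named; values per array were given for partly detected, Dixon-outlying and all Dnmt and Ezh genes, and for the 3 steadiest and 3 most variable of each other family. The members and lists were chosen with earlier results of these data known. The deposited marks of 0 or 1 are the authors' scanner software's. Pearson's r between arrays over all genes tested was 0.981 to 0.993.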

Additional observations from a re-analysis of the deposited data

Results flagged for a closer look

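The dimmer of the 2 Hdac4 probes had 1 array far from the other 3. Its level was -1.18, -0.50, -0.44 and -0.40 on replicates 1 to 4, and the gap of replicate 1 to the nearest array was 0.878 of the whole range, above Dixon's critical value for 4 samples. Chance flags about 1 in 20 such groups. Of the 10 other probes of these genes examined this was the only one, while 0 of the 31 genes by their brightest probe and 5.85% of all 14918 genes tested passed the same value. The brighter Hdac4 probe had 2.35, 2.28, 2.26 and 2.24 and did not stand apart on replicate 1.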

How the results depend on the processing

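No paired analysis was possible because the arrays form 1 group. The count of enzyme genes past the limma variance test was 0 under 13 alternatives, among them no filter on dim probes and 1 row per probe. Their median SD lay between 0.118 (without replicate 2) and 0.166 (no filter). Over all genes tested the number past the test was 71, and 0 with either other percentile, a robust prior or a prior without trend, 22 with quantile normalization, 236 with normexp background correction, 351 with no filter, 94 with a filter on all arrays, and 28 to 163 without 1 replicate. With either other percentile, quantile normalization and normexp, 26, 26, 26 and 23 of 26 named levels moved by more than their SD. With either other percentile and quantile normalization the move was largely a change of the zero point. The median shift over all genes was -3.52 with the percentile over detected probes, -2.36 with that over all spots and 6.33 with quantile normalization. With normexp the levels did not all move the same way: Dnmt3a went from -1.56 to -0.64 and Ezh1 from 5.43 to 4.55. Averaging a gene's probes moved 7 of 26. Leaving out any 1 replicate moved 0. That outcome was fixed, since dropping 1 of 4 values cannot move their mean by more than their SD. The files hold no mean spot signal, so the background correction used the median signal, a change made after seeing the data, as was the fit of each probe on its own. A level under about -2.3 to -3.1 is limited by the background.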

Other observations

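Prdm9, which encodes the histone H3 lysine 4 methyltransferase that marks recombination sites in meiosis, was well above background on all 4 arrays, at -1.61, -2.15, -2.29 and -2.12 on replicates 1 to 4 by its single probe. On replicates 3 and 4 these levels lay close to the dimmest marked spot, which was at -2.56 and -2.40. Of all named genes with a probe, 47.9% passed on all arrays. Prdm9 was singled out after its values were seen.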
